A study of Mus musculus with 17 samples.

Results

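The H3K9ac and H3K56ac peak lists of untreated wild-type (WT) mouse embryonic stem cells were compared region by region. Peaks of the 2 lists that shared at least 1 bp were merged, which gave 3473 regions. Merging all 9 lists of the series that hold peaks in the same way gave 19163 regions, a separate merge, so the 3473 are not a subset of these. Of the 3473 regions, 727 held an H3K9ac peak and no H3K56ac peak, 698 held an H3K56ac peak and no H3K9ac peak, and 2048 held both. Both libraries came from untreated cells of the 129 strain that carry Sirt6, cultured with LIF on irradiated fibroblasts that were removed by a short plating step. The WT Sirt6 library came from untreated WT cells of the same strain. The other 6 acetylation lists came from untreated Sirt6 knock-out (KO) cells and from WT and KO cells kept without LIF and exposed for 2 days to RA (retinoic acid), which drives differentiation. Coordinates are those of mouse build mm9, as in the deposited lists. Every group is 1 library, so nothing below compares replicates and no test between the marks is given. Intervals are 95% intervals that cover counting error, and regions are not replicates.

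Acetylation of lysines in histone H3 loosens contacts within chromatin and offers binding sites to bromodomain proteins. H3K9ac lies in the exposed tail of the histone and is known from active promoters and enhancers. H3K56ac lies in the core of the histone, near where DNA enters and leaves the nucleosome. It marks newly made histones in yeast and has been mapped at active and pluripotency genes in human embryonic stem cells. Sirt6, a sirtuin that uses NAD, removes both acetyl groups, so the positions of the marks relative to each other and to Sirt6 bear on where the enzyme could act.

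Both lists were short and made of narrow peaks. H3K9ac had 2789 peaks with a median length of 186 bp, and H3K56ac had 2750 with a median length of 212 bp. The shortest peaks had exactly the fragment length that the authors' peak caller estimated, which was 155 bp in the H3K9ac library and 175 bp in that of H3K56ac. They made up 9.86% of the H3K9ac list and 9.64% of the H3K56ac list. Peaks longer than 500 bp made up 0.968% of H3K9ac and 1.53% of H3K56ac, against 32.6% of the WT Sirt6 list. The libraries were nearly equally deep, with 7719553 H3K9ac tags and 7790807 H3K56ac tags after filtering. They were called without a control library, per the file headers, so reads that pile up in any library were not removed. Chromosome X held more peaks than any other chromosome, 9.39% of H3K9ac and 9.45% of H3K56ac, where it held 1.76% of Sirt6 peaks. Chromosome 11 held 2.44% of H3K9ac, 2.73% of H3K56ac and 8.50% of Sirt6 peaks, the highest share for Sirt6. Gene positions in mouse build mm9 were not used here, so whether the H3K9ac peaks lay at promoters was not analysed.

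Most regions carried both marks, and the strongest peaks of each mark were nearly all shared. Regions with both marks made up 59.0% of all regions (Wilson interval 57.3% to 60.6%). The classes were formed by overlap of called peaks, so that share describes these lists and is not a test. Seen from the lists, 2062 of the 2789 H3K9ac peaks (73.9%) overlapped an H3K56ac peak, and 2052 of the 2750 H3K56ac peaks (74.6%) overlapped an H3K9ac peak. Each list was split into 4 equal groups by fold enrichment. In the lowest group, 48.9% of H3K9ac peaks (45.2% to 52.6%) and 44.3% of H3K56ac peaks (40.7% to 48.1%) were shared. Fold enrichment is the authors' own value per peak, the tag pileup at the summit over the local background. In the highest group, 695 of 697 H3K9ac peaks (99.7%) and 672 of 688 H3K56ac peaks (97.7%) were shared. Of the strongest peaks, 2 of H3K9ac and 16 of H3K56ac thus had no partner. The 2048 shared regions were also split into 4 equal groups, by the lower of their folds. In the highest group, 446 of 512 (87.1%) were called in all of the other 6 acetylation lists too, and 1 in none. In the lowest group the counts were 137 of 512 (26.8%) and 97. The strongest shared regions were thus mostly not particular to these libraries. The part of the missing control in this was not tested.

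**Figure D1:**
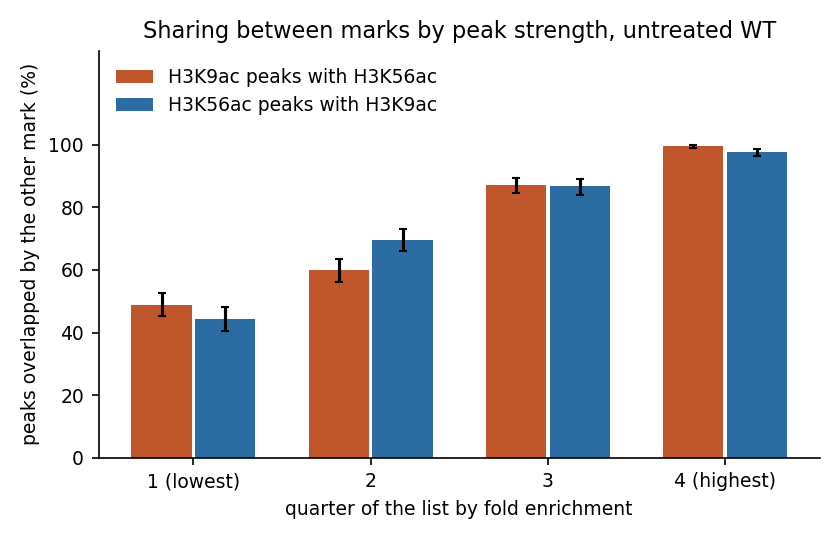
Share of H3K9ac peaks that overlap an H3K56ac peak, and of H3K56ac peaks that overlap an H3K9ac peak, in 4 equal groups of each list ordered by fold enrichment; bars are percent of peaks and lines Wilson 95% intervals. Sharing increased with strength in both lists, to 99.7% of H3K9ac and 97.7% of H3K56ac peaks in the highest group.

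Few regions lay near the limit of the overlap rule. The smallest overlaps between an H3K9ac and an H3K56ac peak were 16 and 41 bp, and the median overlap was 190 bp. The unshared peaks nearest to a peak of the other mark lay 113 bp away for H3K9ac and 62 bp away for H3K56ac. Of the peaks without a partner, 15 of H3K9ac and 15 of H3K56ac lay within 1000 bp of a peak of the other mark. The median distance of an unshared peak to the nearest peak of the other mark was 218 kb for H3K9ac and 300.0 kb for H3K56ac. Most single-mark regions thus had no peak of the other mark nearby.

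Where both marks were called, their summits lay close together. These regions were formed by overlap of peaks with median lengths of 197 bp for H3K9ac and 221 bp for H3K56ac. That limits how far apart most summits can lie. The absolute distance between the summits had a median of 15 bp and quartiles of 6 and 29 bp over the 2048 regions. It was at most 10 bp in 39.8% of regions, at most 50 bp in 91.2% (89.9% to 92.4%) and at most 100 bp in 98.3%. The signed distance, H3K9ac summit minus H3K56ac summit, had a median of 0 bp. It was positive in 989 regions, negative in 1008 and 0 in 51, so neither mark lay to one side of the other on the reference strand. Nearly all of these regions, 2032, held 1 peak of each mark. The largest offsets were in long regions. One, chr13:74665939-74667128, was 1190 bp long with summits 659 bp apart and fold enrichments of 6.96 for H3K9ac and 6.81 for H3K56ac. The next lay on an unplaced contig (chrUn_random:5341159-5341856), with summits 383 bp apart.

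**Figure D2:**
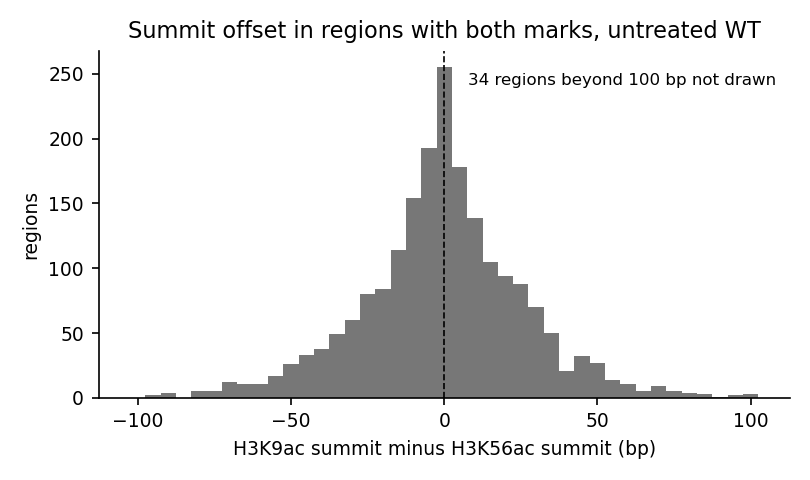
Distance between the summits of the marks in regions that held both, as H3K9ac position minus H3K56ac position in bp, in bins of equal width; the height is the number of regions and the dashed line marks 0; the 34 regions beyond 100 bp are not drawn. The distances were centred on 0, with 91.2% of regions at 50 bp or less.

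H3K9ac peaks were shorter than the H3K56ac peaks they overlapped, with a median length ratio of 0.891 and quartiles of 0.834 and 0.954. The estimated fragment length differed in the same direction, and its part in the length ratio was not tested. The number of tags at the summit was level, with a median H3K9ac to H3K56ac ratio of 1 and quartiles of 0.827 and 1.23.

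Fold enrichment was similar for the marks in most of the 2048 regions. Its median was 13.7 for H3K9ac and 13.1 for H3K56ac, and the median difference within a region was 0.658 (quartiles -1.24 and 2.88). H3K9ac was the higher in 1233 regions (60.2%; 58.1% to 62.3%) and H3K56ac in 815. The values were within 1.5-fold of each other in 1817 regions (88.7%). Across these regions Pearson's r was 0.864 and Spearman's rho 0.805; the points share the mapping, the local sequence and the absence of a control library, and they are not replicates. The 5 regions that ranked highest by the lower of their folds were led by chrX:107134758-107135029, with 41.8 for H3K9ac and 40.1 for H3K56ac. Next came chr15:4618228-4618510, with 41.4 for H3K9ac and 38.4 for H3K56ac. Then followed chrX:75142516-75142791 (40.8 for H3K9ac, 38.1 for H3K56ac), chrX:112691137-112691410 (39.0 for H3K9ac, 38.0 for H3K56ac), and chr11:37736762-37737026 (38.9 for H3K9ac, 37.6 for H3K56ac). Summits in these 5 regions were 0 to 9 bp apart. All 5 were called in the other 6 acetylation lists too, and the one on chromosome 11 overlapped a Sirt6 peak, with a Sirt6 fold of 3.99.

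The balance of the marks tilted towards H3K56ac where Sirt6 was strong. H3K9ac had the higher fold in 49 of the 150 regions with both marks and a WT Sirt6 peak (32.7%; 25.7% to 40.5%), against 1184 of the 1898 without one (62.4%; 60.2% to 64.5%). The difference was -29.7 percentage points (Newcombe interval -37.0 to -21.6). Most regions with Sirt6, 136 of the 150, were called in all of the other 6 acetylation lists; among regions without Sirt6 called in all 6, H3K9ac was the higher in 54.8% of 861 (51.5% to 58.1%). The tilt was strongest at the 50 regions whose Sirt6 peak was at or above the median fold of the Sirt6 list, 8.08, a split chosen after the values were seen. There H3K56ac was the higher in 50 and H3K9ac in 0, which allows a share of up to 6% for H3K9ac. Their median fold was 14.6 for H3K9ac and 25.1 for H3K56ac, and the ratio of H3K9ac to H3K56ac had a median of 0.643 and a range of 0.344 to 0.947. The summit pileup, which carries no background estimate, gave the same order in all 50, with medians of 24.5 tags for H3K9ac and 65 for H3K56ac. In the 100 regions with a weaker Sirt6 peak, H3K9ac was the higher in 49 (49.0%; 39.4% to 58.7%) and the median ratio was 0.997. The 50 regions lay on 18 chromosomes or contigs, 44 of them on autosomes. Of the 50, 48 were called in all of the other 6 acetylation lists, against 48.7% of all 2048 regions with both marks. With the Sirt6 limit lowered to the lower quartile of its list, H3K56ac was the higher in 59 of 63 regions (93.7%). These 63 include the 50 regions above, so most of that share comes from them.

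The largest differences in favour of H3K56ac lay at Sirt6 peaks. At chr1:25176867-25177140 the fold was 11.6 for H3K9ac and 32.3 for H3K56ac, with summits 1 bp apart and 18 H3K9ac and 96 H3K56ac tags at the summit. The region chr7:81944459-81944730 had 10.4 for H3K9ac and 30.1 for H3K56ac. The region chr10:85697262-85697528 had 12.8 for H3K9ac and 30.2 for H3K56ac. These 3 regions overlapped Sirt6 peaks with Sirt6 folds of 14.5, 16.1 and 13.9, in that order. In each other H3K9ac list the same regions had higher folds than in untreated WT H3K9ac, a value that entered their choice. The folds were 33.7, 28.7 and 32.0 in untreated KO, 25.3, 26.4 and 26.3 in WT after RA, and 26.6, 25.5 and 25.9 in KO after RA. The largest differences in favour of H3K9ac were at chrX:22545380-22545590 (22.3 for H3K9ac, 9.24 for H3K56ac), at chrY_random:35379743-35379958 (23.7 for H3K9ac, 10.97 for H3K56ac) and at chr10:5433224-5433461 (23.0 for H3K9ac, 11.5 for H3K56ac). None of these 3 overlapped a Sirt6 peak. Chosen the other way, they had lower H3K9ac folds or no call in the other H3K9ac lists. The chrY_random region had 12.1 in untreated KO, 11.5 in WT after RA and 10.8 in KO after RA. The chr10 region had 10.9, 13.3 and 11.8 in that order, and the chrX region was not called in these H3K9ac lists. A difference of more than 2-fold was found in 6 regions for H3K9ac, of which 0 had a Sirt6 peak, which allows a share of up to 50.0%. H3K56ac led by more than 2-fold in 12 regions, of which 8 had a Sirt6 peak (39.1% to 86.2%). All 12 were called in all 8 acetylation lists, against 0 of the 6 that H3K9ac led and 49.1% of all 2048 shared regions. The Sirt6 share was 13.5% of the 1005 shared regions called in all 8 lists and 7.32% of all shared regions.

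**Figure D3:**
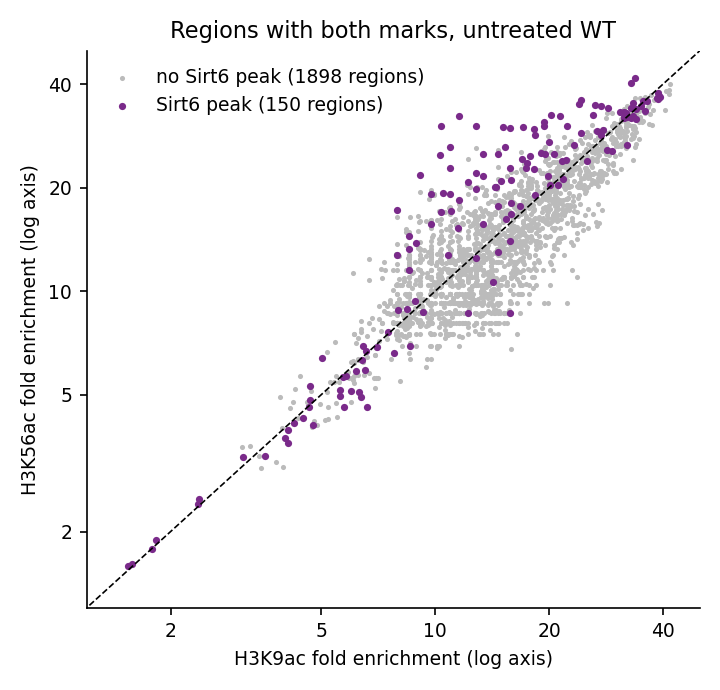
Fold enrichment of H3K9ac (horizontal, log axis) and H3K56ac (vertical, log axis) in the 2048 regions with both marks; each point is a region, purple where it overlaps a WT Sirt6 peak (150 regions) and grey where it does not (1898 regions), and the dashed line marks equal values. H3K9ac was the higher in 49 of the 150 purple regions, which lie below the line, and the other purple points lie above it, on the side of higher H3K56ac.

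At strong Sirt6 peaks the tilt was less complete in the other conditions, which were set against the same Sirt6 list of untreated WT cells. Among regions with both marks and a Sirt6 fold of 8.08 or more, H3K9ac was the higher in 45.5% of 222 in untreated KO cells (39.1% to 52.1%). After RA it was the higher in 26 of 69 in WT cells (37.7%; 27.2% to 49.5%) and in 30 of 89 in KO cells (33.7%; 24.7% to 44.0%), against 0 of 50 in untreated WT cells. The median ratio of H3K9ac to H3K56ac was 0.980 in untreated KO, 0.980 in WT after RA and 0.918 in KO after RA, against 0.643 in untreated WT. At Sirt6 peaks of any fold, H3K9ac was the higher in 50.1% of regions in untreated KO, against 65.7% without a Sirt6 peak. In the same order the shares were 46.0% and 72.5% in WT after RA, and 47.2% and 74.6% in KO after RA. In untreated WT they were 32.7% and 62.4%. H3K9ac was thus less often the higher at Sirt6 peaks in every condition, KO included. The regions differ between conditions, since each condition has its own peak lists, and the difference between conditions was not tested.

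Single-mark regions were weaker than shared ones in both lists. H3K9ac-only regions had a median fold of 9.13 (quartiles 8.31 and 10.6), and H3K56ac-only regions 8.20 (7.26 and 9.82). In regions with both marks the medians were 13.7 and 13.1. The authors' −log10 q reached 10 in 63.8% of H3K9ac-only regions (60.3% to 67.2%) and in 52.4% of H3K56ac-only regions (48.7% to 56.1%), against 92.0% for H3K9ac and 91.7% for H3K56ac where both were called. Peaks of the shortest length possible made up 24.6% of H3K9ac-only and 25.1% of H3K56ac-only regions, against 4.59% and 4.39% of the H3K9ac and H3K56ac peaks in shared regions. The single-mark classes were nearly equal in number, with a ratio of H3K9ac-only to H3K56ac-only regions of 1.04 (exact interval 0.938 to 1.16).

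The strongest H3K9ac-only region was chrX:69112988-69113165, with a fold of 17.8 and 31 tags at the summit. The next by fold were chr18:23698185-23698375 (16.9), chr7:60183056-60183253 (16.6), chr13:88189205-88189439 (16.6) and chr3:158537730-158537927 (16.4). Of these 5, 3 were called in none of the other 6 acetylation lists and 0 overlapped a Sirt6 peak. The strongest H3K56ac-only region was chrX:59451045-59451276, with a fold of 21.4 and 40 tags at the summit. It was followed by chr8:15442552-15442830 (21.2), chr16:82705249-82705518 (20.05), chr1:116667074-116667292 (19.9) and chr3:78299883-78300134 (19.9). Of these 5, 4 were called in all of the other 6 acetylation lists and 4 overlapped a Sirt6 peak.

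The single-mark classes differed in how often other libraries held the same region. Of the H3K9ac-only regions, 460 (63.3%; 59.7% to 66.7%) were called in none of the other 6 lists, against 212 of the H3K56ac-only regions (30.4%; 27.1% to 33.9%). The share over all 3473 regions was 24.2%. The difference was 32.9 percentage points (Newcombe interval 27.9 to 37.7). At the other end, 11 H3K9ac-only regions (1.51%; 0.847% to 2.69%) and 130 H3K56ac-only regions (18.6%; 15.9% to 21.7%) were called in all of the other 6, where the share over all regions was 32.8%. Regions with both marks were called in all 6 in 997 cases (48.7%) and in none in 170 (8.30%). At matched fold in the own mark, the share called in none of the other 6 lists was higher for H3K9ac-only regions in every bin, by an amount that varied. Below a fold of 8 it was 65.0% of H3K9ac-only and 44.1% of H3K56ac-only regions, and between 8 and 10 it was 67.1% of H3K9ac-only and 31.3% of H3K56ac-only regions. Between 10 and 12 it was 61.3% of H3K9ac-only and 5.19% of H3K56ac-only regions, and at 12 and above 48.8% (42 of 86) of H3K9ac-only and 6.02% (5 of 83) of H3K56ac-only regions.

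**Figure D4:**
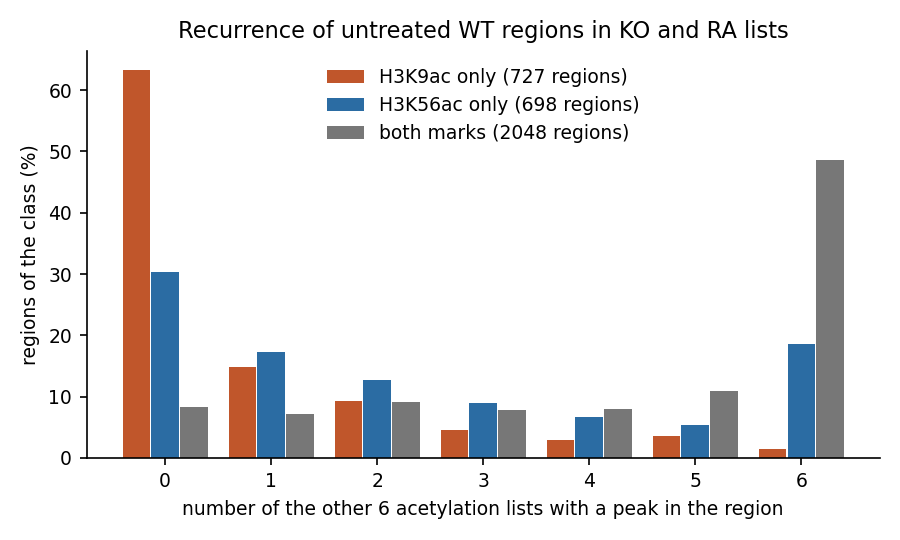
Number of the other 6 acetylation lists (untreated KO, WT after RA and KO after RA, for both marks) that held a peak in each untreated WT region, as percent of the regions of each class. H3K9ac-only regions peak at 0 lists (63.3%), regions with both marks at 6 lists (48.7%), and H3K56ac-only regions have high shares at 0 (30.4%) and at 6 (18.6%).

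H3K56ac-only regions were held by each of the other 6 lists less often than regions in general. The H3K9ac list of untreated KO held 45.4% of them (41.8% to 49.1%), that of WT after RA 42.1% and that of KO after RA 48.7%, where these lists held 53.6%, 61.0% and 66.1% of all 3473 regions. The H3K56ac lists of the same conditions held 33.7%, 31.1% and 33.95% of them, and 41.1%, 47.4% and 47.8% of all regions. The higher shares in H3K9ac lists were thus found over all regions too. H3K9ac-only regions were held by the H3K56ac lists in 7.15% of untreated KO, 7.98% of RA WT and 10.6% of RA KO, and by the H3K9ac lists in 13.8%, 20.4% and 25.9%. Merging all 8 acetylation lists gave 1236 regions called in each of the 6 other lists. Of these, 11 lacked H3K56ac alone in untreated WT, 128 (10.4%; 8.78% to 12.2%) lacked H3K9ac alone, 104 lacked both and 993 had both. The 130 H3K56ac-only regions held by all 6 others had median folds of 12.9 to 14.6 in those lists, against 10.4 in untreated WT H3K56ac. In each of the 6 lists their median was below that of the 997 shared regions, for example 14.1 against 16.5 in untreated KO H3K9ac and 13.6 against 18.2 in WT H3K9ac after RA. The fold in another list over that in untreated WT H3K56ac had a median of 1.22 to 1.34 in the 130, whichever of the 6 lists was taken, and of 0.823 to 1.00 in the 997. Being called in all 6 lists was how these regions were chosen. Untreated WT H3K56ac had the lowest fold of the 7 lists that called the region in 65 of the 130 (50.0%; 41.5% to 58.5%) and was below all 6 other lists in 127 of the 997 (12.7%; 10.8% to 15.0%).

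Sirt6 overlap separated the single-mark classes. A WT Sirt6 peak overlapped 3 of the 727 H3K9ac-only regions (0.413%; Wilson interval 0.140% to 1.21%), 171 of the 698 H3K56ac-only regions (24.5%; 21.5% to 27.8%) and 150 of the 2048 regions with both marks (7.32%; 6.27% to 8.53%). H3K9ac-only minus H3K56ac-only gave -24.1 percentage points, with a Newcombe interval of -27.4 to -20.9. Over all 3473 regions the share was 9.33%, and over the 6400 regions of the 8 acetylation lists together it was 26.9%. The H3K56ac-only share is thus close to that of acetylation regions in the whole series, and the other shares lie below it. Of the 150 regions with both marks, 136 were among those called in all 8 lists; without these the share was 1.34% (0.801% to 2.24%).

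The difference between the single-mark classes was present at each level of peak strength. Below a fold of 8, 3 of 157 H3K9ac-only regions (1.91%) and 126 of 270 H3K56ac-only regions (46.7%; 40.8% to 52.6%) overlapped a Sirt6 peak. From 8 to 10 the counts were 0 of 334 for H3K9ac, which allows up to 0.898%, and 15 of 268 for H3K56ac (5.597%; 3.42% to 9.03%). From 10 to 12 they were 0 of 150 for H3K9ac, which allows up to 2%, and 10 of 77 for H3K56ac (13.0%; 7.21% to 22.3%). At 12 and above they were 0 of 86 for H3K9ac, which allows up to 3.49%, and 20 of 83 for H3K56ac (24.1%; 16.2% to 34.3%). The H3K56ac-only regions with Sirt6 were thus found mainly among the weakest and, less often, among the strongest calls. With a −log10 q of at least 10 in all lists, the H3K56ac-only share was 11.2% (8.69% to 14.4%) and the H3K9ac-only share 0.347%.

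**Figure D5:**
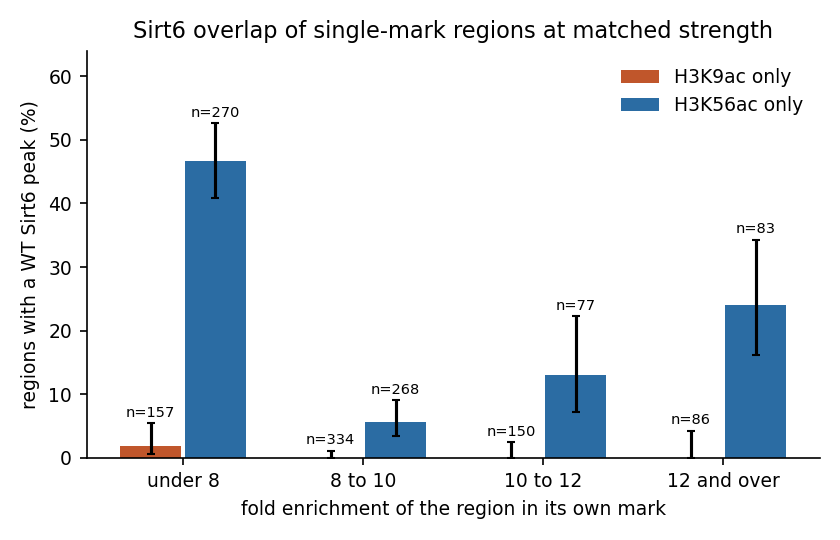
Percent of H3K9ac-only and H3K56ac-only regions of untreated WT cells that overlap a WT Sirt6 peak, by fold enrichment of the region in its own mark; lines are Wilson 95% intervals and n is the number of regions. H3K9ac-only regions lie at 1.91% or less in every bin, and H3K56ac-only regions at 46.7% in the lowest and 24.1% in the highest.

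The Sirt6 peaks themselves differed between classes. Those at H3K56ac-only regions had a median Sirt6 fold of 12.5 (quartiles 9.72 and 16.3) and a median length of 600 bp. Those at regions with both marks had a median Sirt6 fold of 5.08 (3.47 and 10.2) and a median length of 283 bp. The whole Sirt6 list had medians of 8.08 and 384 bp. The H3K56ac summit lay a median of 50 bp from the Sirt6 summit in H3K56ac-only regions and 15 bp in regions with both marks. All 3 H3K9ac-only regions with Sirt6 were weak. A pair of neighbours lay on an unplaced contig (chrUn_random:4536181-4536436 and chrUn_random:4536548-4536816) with folds of 6.62 and 5.46, and the other, chr13:74667841-74667996, had 5.44. Seen from the Sirt6 list, 2 of 14510 peaks overlapped an H3K9ac-only region, 171 (1.18%; 1.02% to 1.37%) an H3K56ac-only region and 148 (1.02%) a region with both marks.

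Among H3K56ac-only regions, both untreated KO lists held those with a Sirt6 peak more often than those without one. The untreated KO H3K9ac list held 59.1% of the 171 with Sirt6 (51.6% to 66.2%) and 216 of the 527 without Sirt6 (41.0%; 36.9% to 45.2%). The share with Sirt6 was near the 53.6% of all 3473 regions that this list held. The untreated KO H3K56ac list held 46.2% of those with Sirt6 (38.9% to 53.7%) and 29.6% of those without Sirt6 (25.9% to 33.6%), where it held 41.1% of all regions. The H3K9ac lists after RA had the opposite order. WT H3K9ac after RA held 18.7% (13.6% to 25.2%) of those with Sirt6 and 49.7% (45.5% to 54.0%) of those without, and KO H3K9ac after RA held 26.3% (20.3% to 33.4%) and 55.98% (51.7% to 60.2%). These lists held 61.0% and 66.1% of all 3473 regions. For H3K56ac after RA the shares with and without Sirt6 were 26.9% and 32.4% in WT, and 29.8% and 35.3% in KO. Their intervals overlapped, and these lists held 47.4% and 47.8% of all regions.

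Set beside the other conditions, untreated WT cells had about the same share of regions with both marks as RA-treated WT cells. Both marks were called in 42.8% of 4077 regions in untreated KO, 59.2% of 2938 in WT after RA and 54.3% of 3482 in KO after RA, against 59.0% in untreated WT. H3K9ac-only regions outnumbered H3K56ac-only regions by a ratio of 3.80 in untreated KO, 2.77 in WT after RA and 3.64 in KO after RA, against 1.04 in untreated WT. List lengths differed with these ratios: the H3K9ac and H3K56ac lists held 3593 and 2235 peaks in untreated KO, 2626 and 2063 in WT after RA, and 3147 and 2239 in KO after RA. Sirt6 overlap of H3K9ac-only minus H3K56ac-only regions was 6.94 percentage points (1.94 to 11.9) in untreated KO, -23.6 (-28.7 to -19.1) in WT after RA and -13.9 (-18.6 to -9.70) in KO after RA, against -24.1 in untreated WT. All 4 differences use the 1 WT Sirt6 list.

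Few regions met a window of the 5-hydroxymethylcytosine data, an immunoprecipitation (IP) after bisulfite treatment in untreated KO and WT cells. Of 3780 windows of the authors' deposited table, 13 overlapped a region, 10 of them lower (76.9%; 49.7% to 91.8%) and 3 higher in KO. Of all windows in the authors' deposited table, the share lower in KO was 41.3%. Several of the 13 were neighbours, so they are not independent. They touched 2 H3K9ac-only, 5 H3K56ac-only and 5 shared regions. At chr1:124669001-124669500 the KO cells had 12 IP reads and 9 input reads, and the WT cells 72 IP reads and 17 input reads. The authors' deposited table gives it a log2 fold change of -2.32 for KO over WT, and it lay at an H3K56ac-only region with a Sirt6 peak. A further 4 windows were neighbours on chromosome 17, between 39980001 and 39983500, where KO input held 280 to 462 reads and WT input 283 to 469, the highest input counts among the 13. Both H3K9ac-only regions lay there, with folds of 2.89 and 2.90.

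Regions with both marks were most frequent, among sets of over 100 regions, on unplaced contigs. There 123 of 166 regions (74.1%; 66.9% to 80.2%) had both marks, with median folds of 7.45 for H3K9ac and 7.19 for H3K56ac. On chromosome X 192 of 330 regions (58.2%) did, with median folds of 14.7 for H3K9ac and 14.1 for H3K56ac. Among the autosomes the share ran between 52.4% on chromosome 8 and 63.1% on chromosome 3, and the Wilson intervals of these chromosomes overlapped. Chromosome 8 had 22 H3K9ac-only and 47 H3K56ac-only regions, and 21 of the 47 had a Sirt6 peak.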

How the data were processed

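The submitters' processing notes name BWA 0.5.9, MACS2 2.0.10, Picard and mm9. MACS2 made a peak list for each library with q limited to 0.01 and 1 tag kept per position, per the file headers; acetylation had no control and Sirt6 had whole-cell extract. The authors' deposited lists give the summit pileup as a signal, the −log10 q and the fold enrichment. The authors' deposited window table gives read counts per library, with no scaling. The authors made its log2 fold change with edgeR, per the column names. The number of unused per-sample columns was 0.

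Overlapping peaks (1 bp or more) of both lists were merged; where a region held several peaks of a mark, the one with the highest fold stood for it. Shares carry Wilson, differences Newcombe and ratios exact (Clopper-Pearson) intervals at 95%. For a count of 0 the limit is 3 counts of the total. Regions were named by a rule: the 5 highest folds per class, the 3 largest fold differences each way, the 2 largest offsets and the 3 highest per class with Sirt6, of which those not already listed are left out for regions with both marks and H3K56ac only. Merging was tested on simulated peaks. Members, lists and rules were chosen with earlier results of these data known. Gene lists were not applied, because no mm9 gene positions were used here. The software was matplotlib 3.10.9, statsmodels 0.14.6, scipy 1.17.1, pandas 2.3.3, numpy 2.4.6 and Python 3.11.15. The settings varied were the −log10 q limit (at least 10), the overlap (50% of the shorter peak), list length (made equal), joining of peaks (within 1000 bp), autosomes alone, and removal of regions that every acetylation list holds.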

Additional observations from a re-analysis of the deposited data

Results flagged for a closer look

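The difference in Sirt6 overlap between H3K9ac-only and H3K56ac-only regions had opposite signs in untreated KO and untreated WT cells. It was 6.94 percentage points in untreated KO (53.4% of H3K9ac-only and 46.5% of H3K56ac-only regions) and -24.1 in untreated WT (0.413% of H3K9ac-only and 24.5% of H3K56ac-only regions). Each genotype had 1 library per mark, so the difference between genotypes was not tested. The H3K9ac and H3K56ac lists held 3593 and 2235 peaks in KO, and 2789 and 2750 in WT. Peak strength differed too: the −log10 q reached 10 in 53.5% of KO and 84.4% of WT H3K9ac peaks. For H3K56ac peaks it did so in 68.7% in KO and 81.7% in WT. The parts of list length and peak strength in this contrast were not tested.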

How the results depend on the processing

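Of 90 values computed under alternatives, 79 stayed within 1.5 times the count or within the interval or quartiles of the reported value, 11 moved further and 0 changed sign. Only the fold difference and the Sirt6 overlap difference could change sign, since the other values are counts, shares, ratios or absolute distances. The ratio of H3K9ac-only to H3K56ac-only regions crossed 1 with lists of equal length, at 0.993 against 1.04, within its interval. With a −log10 q of at least 10 in all lists, the ratio of H3K9ac-only to H3K56ac-only regions was 1.22, the Sirt6 overlap of H3K56ac-only regions 11.2%, and its difference from H3K9ac-only regions -10.9 percentage points. With that limit on the acetylation lists alone, chosen after seeing the data, the overlap was 12.9% and the difference -12.4; with it on the Sirt6 list alone, also chosen then, the overlap of regions with both marks was 6.01%. On autosomes that overlap was 6.21%. Without the regions called in all 8 lists, 1043 regions had both marks and 1.34% of them a Sirt6 peak. The 11 H3K9ac-only regions called in all 6 other lists became 17 with the stricter limit on the untreated WT lists and 6 on autosomes; the 130 H3K56ac-only ones became 141 and 105. The share with higher H3K56ac among shared regions with strong Sirt6 was 93.7% to 100% under 8 settings chosen after seeing the data. These settings mostly counted the same 50 regions again, and the Sirt6 limit that defines them was itself chosen after the values were seen. The range is therefore not separate support for the tilt. The causes of these shifts were not tested. No paired analysis was possible because each group held 1 library. The median summit held 15 tags in H3K9ac-only and 14 in H3K56ac-only regions; the effect of depth on these calls was not tested.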
